A study of Mus musculus with 22 samples.

Results

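MicroRNA gene neighborhoods were the autosomal microRNA genes of the RefSeq annotation of mm10, each with 1 kb on either side. A gene was a member if its symbol began with Mir and a digit or with Mirlet7, and its neighborhood was kept if it held at least 2 CpG positions covered in all 22 samples. Of 1090 such genes, 336 met this minimum, 20 had 1 position and 734 had none. Overlapping neighborhoods were merged, which left 304 regions, 283 with 1 gene and 21 with more, up to 7. They held 7435 of the 1140639 positions covered in all samples, with a median of 9 positions per region (2 to 181), and 33 regions had only 2. The 2 strands of a CpG were counted as separate positions.

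The samples were bulk mammary tumors of female PyMT mice and mammary glands of FVB females of the same ages, each from another mouse. PyMT mice were the F1 of transgenic males and FVB females, with 1 copy of the polyoma middle T antigen gene under the MMTV promoter, which drives it mainly in mammary epithelium, and the FVB mice lacked the transgene. Weeks 6, 8, 10 and 12 stand for hyperplasia, adenoma or intraepithelial neoplasia of the mammary gland (adenoma/MIN), early carcinoma, and late carcinoma with lung metastasis, with 2, 3, 3 and 2 PyMT samples and 3 FVB samples at each week. The methods of the study give 3 mice per strain and week and the removal of 2 outlying samples. Methylation was read by ERRBS, enhanced reduced representation bisulfite sequencing, in which unmethylated cytosines are converted and read as thymine, so that each CpG position has a percent of methylated reads.

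MicroRNAs are short RNAs that pair with messenger RNAs, mostly through the seed (bases 2 to 8 of the mature RNA), and lower the translation or stability of their targets. A gene is transcribed as a long primary RNA, often from inside a host gene, and the hairpin cut from it is the precursor. Methylation of CpGs at their promoters is one of the ways microRNA genes are silenced, and in mammary tissue the miR-200 and let-7 families are known for keeping cells epithelial and differentiated.

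Mature sequences of the microRNAs that the results turn on were taken from RefSeq (GRCm38.p6), 5′ to 3′, with the seed in capitals. The first set comes from regions that were lower in PyMT. The miR-200 family members miR-141 and miR-200c repress the ZEB transcription factors, miR-10b lies in a Hox cluster, and let-7c and miR-1961 carry the same seed.
miR-141-3p: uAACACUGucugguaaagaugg
miR-200c-3p: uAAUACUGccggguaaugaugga
miR-365-3p: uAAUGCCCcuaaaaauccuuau
miR-10b-5p: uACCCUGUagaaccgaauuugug
let-7c-5p: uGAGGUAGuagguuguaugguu
miR-1961: uGAGGUAGuaguuagaa

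The second set comes from regions that were higher in PyMT. They include miR-130a, known from blood vessel growth, miR-184 of the cornea and lens, miR-219a of oligodendrocytes, the cluster of miR-99b, let-7e and miR-125a, and the cluster of miR-25, miR-93 and miR-106b, which is a paralog of the miR-17 cluster. Each region was measured as a whole, and not every precursor in it held a measured position.
miR-130a-3p: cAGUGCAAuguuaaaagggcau
miR-184-3p: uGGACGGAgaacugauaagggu
miR-219a-5p: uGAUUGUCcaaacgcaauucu
miR-99b-5p: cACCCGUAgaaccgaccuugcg
let-7e-5p: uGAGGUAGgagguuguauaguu
miR-125a-5p: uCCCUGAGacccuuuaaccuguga
miR-25-3p: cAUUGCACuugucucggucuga
miR-93-5p: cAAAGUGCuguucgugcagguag
miR-106b-5p: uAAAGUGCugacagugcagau

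The third set holds microRNAs of other loci that are described further on because they share a seed with 1 another or with a microRNA of the sets above. let-7i has the seed of let-7e, miR-125b that of miR-125a, and miR-92b that of miR-25, while miR-26a and miR-26b share theirs.
let-7i-5p: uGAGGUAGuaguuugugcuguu
miR-125b-5p: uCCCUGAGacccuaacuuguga
miR-92b-3p: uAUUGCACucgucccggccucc
miR-26a-5p: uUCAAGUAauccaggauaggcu
miR-26b-5p: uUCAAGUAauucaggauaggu

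A sample had 1314077 to 1435757 positions at a mean coverage of 60.2 to 79.2 reads, and 65.05 to 93.99 reads within the microRNA neighborhoods. The mean coverage of a region had a median of 72.4 reads, with the lowest at 19.9 and the highest, Mir6236, at 1758, and the called regions were between 21.0 and 121 reads. The median methylation over the 304 regions was 43.6% to 46.5% in the 12 FVB samples and 33.8% to 40.7% in the 10 PyMT samples. The samples that lay farthest from the others of their strain were FVB week 8 replicate 2 and PyMT week 6 replicate 1. Their mean distance over the regions was 3.25 and 3.14 percentage points (points in what follows), against medians of 2.32 in FVB and 2.72 in PyMT. Without the former, 31 regions were called higher and 59 lower in the comparison below, and without the latter 28 and 62. All p-values rest on the spread among these mice, except those of single positions, which rest on reads.

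To ask which microRNA neighborhoods differed between tumors and glands, the mean methylation of each region was compared within each week, and the 4 differences were averaged. Of the 304 regions, 32 were higher in PyMT (10.5%) and 60 were lower (19.7%), at an adjusted p under 0.05 and a difference of at least 5 points. The test was limma on the logit scale, with Benjamini-Hochberg adjustment over these regions and 97320 other 2 kb tiles of the autosomes. Among all 97624 features, 10.8% were higher and 32.7% were lower. The share of regions that rose was thus near that of the genome covered, and the share that fell was smaller. The median difference was -0.0113 points over the regions and -1.25 points over all features, for which the median on the log2 logit scale fell by 0.20.

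Without the minimum of 5 points, 56 regions passed the adjusted p as higher (18.4%, against 15.6% of all features) and 81 as lower (26.6%, against 38.4%). All 10 PyMT samples lay above all 12 FVB samples in 11 regions (3.62%, against 3.26% of all features) and below them in 33 (10.9%, against 11.2%). Of the 32 regions called higher, 30 differed in the same direction at all 4 stages, and so did 59 of the 60 called lower. The calls were made on the mean of these 4 differences. This agreement and the medians by stage that follow are thus in part set by the selection. So is the lack of overlap between the strains in regions named below for their large differences. The agreement was not counted among the called tiles. The median difference of the regions called higher was 8.56, 10.4, 13.4 and 12.4 points at weeks 6, 8, 10 and 12. That of the regions called lower was -11.1, -12.8, -17.4 and -16.3 points. Regions just inside the threshold were Mir378c at -5.004 points and Mir6911 at 5.47, and regions just outside it were Mir7235 at -4.70 and Mir1191b at 4.72, all of which changed sides under some alternatives.

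**Figure D1:**
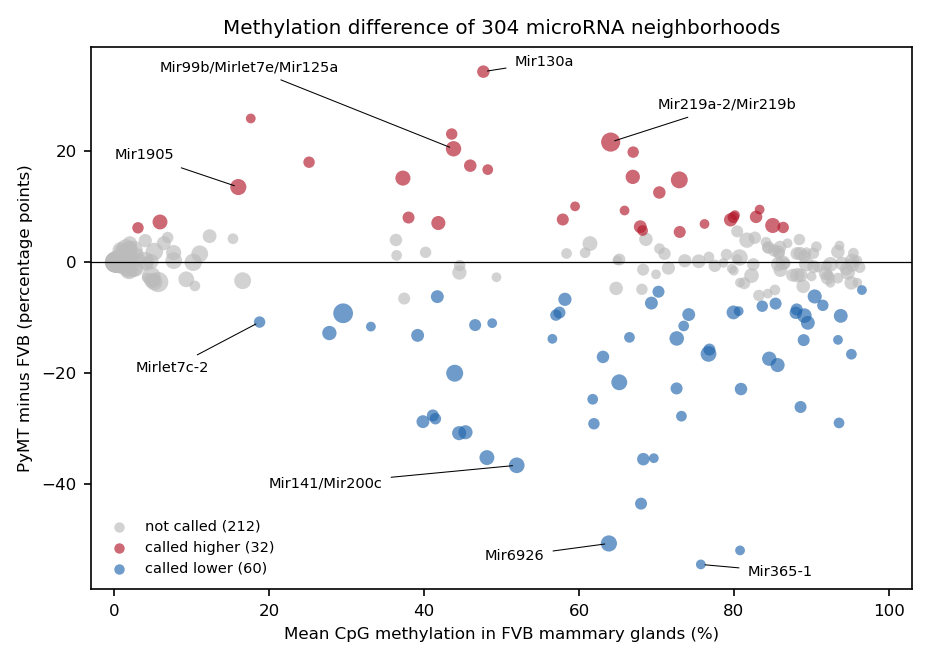
Mean CpG methylation of each of the 304 microRNA neighborhoods in FVB mammary glands (x axis, percent) against the PyMT minus FVB difference averaged over the 4 stages (y axis, percentage points), with larger points for more positions. Grey points are the 212 regions not called, red the 32 called higher and blue the 60 called lower. Most regions near 0% stayed near a difference of 0, and the differences ran from -54.5 points at Mir365-1 to 34.4 at Mir130a.

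The regions called lower were led by Mir365-1, Mir1948 and Mir6926. Each value below is the mean methylation of a region, and ± is the standard error of the difference in points. Mir365-1 (chr16:13452840-13454926), in an intron of the transcripts Gm32817 and Gm53058, was at 66.95%, 75.3% and 84.6% in the lowest, median and highest FVB sample and at 9.83%, 19.4% and 37.0% in PyMT. It fell by 54.5 ± 2.86 points (adjusted p = 1.16e-09, limma), and no PyMT sample reached the FVB range. The region rested on 2 positions, at -785 and -676 bp from the 5′ end of the precursor.

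Mir193b, which is known to be made from the same primary RNA as Mir365-1, lies in the same transcripts. Its neighborhood (chr16:13448523-13450601, 16 positions) was at 0.657% in FVB and 0.393% in PyMT. The difference of -0.273 ± 0.134 points did not pass (adjusted p = 0.0529). The 2 neighborhoods of 1 transcript thus had very different levels in the glands, and the test was passed at the methylated one.

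Mir1948, in an intron of Ttc39c, was at 69.8%, 81.8% and 88.2% in the lowest, median and highest FVB sample and at 13.9%, 28.6% and 47.1% in PyMT. It fell by 52.0 ± 3.13 points (adjusted p = 2.30e-09, limma), also on 2 positions. The groups did not overlap.

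Mir6926 (chr11:74867127-74869194), in an intron of Sgsm2, a regulator of RAB GTPases, had the most positions of the 10 regions with the largest falls, 25. FVB samples were at 55.8%, 65.1% and 67.6% and PyMT samples at 7.18%, 12.9% and 20.6%, lowest, median and highest. The fall of 50.7 ± 1.92 points (adjusted p = 1.29e-10, limma) was present at all 25 positions, at which it ran from 10.4 to 68.8 points in size. Hyperplasia was already at 11.5% ± 0.825 (SD, n = 2), against 61.9% ± 5.94 (SD, n = 3) in the glands of the same week.

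The Mir141/Mir200c cluster (chr6:124716914-124719390, intergenic) was the one region of the miR-200 family that could be measured. The lowest, median and highest FVB samples were at 39.6%, 54.1% and 60.4%, and the PyMT samples at 9.29%, 14.7% and 23.7%. Methylation fell by 36.6 ± 2.38 points (adjusted p = 3.25e-09, limma), and every PyMT sample lay below every FVB sample.

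By stage, PyMT samples at Mir141/Mir200c were at 15.4% and 16.7% in hyperplasia, at 14.1%, 23.7% and 11.9% in adenoma/MIN, at 13.99%, 12.6% and 16.4% in early carcinoma and at 9.29% and 19.7% in late carcinoma. The glands were at 44.3%, 39.6% and 55.7% at week 6 and at 58.1%, 55.5% and 57.8% at week 12. The differences of -30.5, -32.1, -41.1 and -42.7 points therefore grew while the PyMT means stayed between 14.3% and 16.6%, and the FVB means went from 46.6% to 57.1%.

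All 20 positions of Mir141/Mir200c were lower in PyMT, by 14.5 to 52.5 points in size. None lay in a precursor (Mir141 at chr6:124717914-124717985 and Mir200c at chr6:124718322-124718390). They sat at -916 to 1128 bp from the outer 5′ end of the precursors. The stretch upstream of Mir200c with the largest falls is shown on the strand of the genes, with the measured CpGs in capitals (chr6:124718765-124718845, minus strand, GRCm38.p6).
Mir141/Mir200c upstream stretch: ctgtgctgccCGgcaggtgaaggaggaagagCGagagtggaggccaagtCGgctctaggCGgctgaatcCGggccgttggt
In the order in which it is read, the first CpG of this stretch went from 70.7% to 17.7%. The second went from 74.1% to 22.9% on the strand of the genes and from 66.99% to 17.7% on the other. The third, with 39.9% and 38.2% on its strands, was lower in the glands and went to 12.5% and 13.5%.

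**Figure D2:**
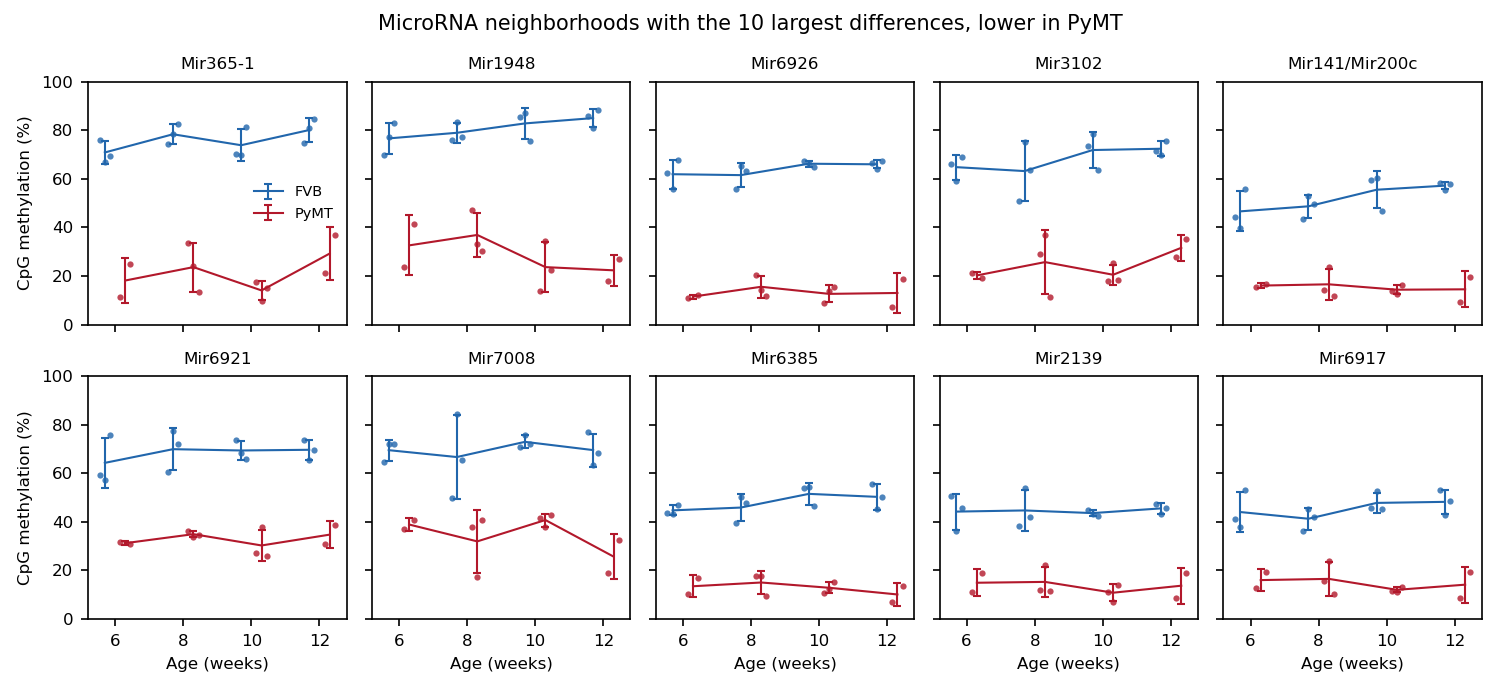
CpG methylation (y axis, percent) by age (x axis, weeks) of the 10 microRNA neighborhoods with the largest falls, with a point for each sample and the mean ± SD of each strain and week. In all 10 panels every PyMT sample (red) lies below every FVB sample (blue), at Mir6926 for instance at 7.18% to 20.6% against 55.8% to 67.6%. The panels were picked by the size of the difference in the same samples.

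The other 6 of the 10 regions with the largest falls lay in or across a host gene, and in each the groups did not overlap. Mir3102, in an intron of Arhgef17, fell by 43.5 ± 3.31 points (adjusted p = 3.17e-08, limma), from an FVB mean of 68.0% to 24.2%. Mir6921, in an intron of Srebf1, which encodes an activator of lipid synthesis, fell by 35.5 ± 2.62 points (adjusted p = 1.33e-08), from 68.3% to 32.8%. Its 3 positions within the precursor fell by 37.5 points on average and the 3 in the flank by 33.5.

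Mir7008, in an intron of the atypical protein kinase C gene Prkci, fell by 35.3 ± 3.77 points on 2 positions (adjusted p = 1.32e-06, limma), and by 17.7 with flanks of 2 kb. Mir6385, antisense to an intron of Pml, the organizer of PML nuclear bodies, fell by 35.2 ± 1.88 points (adjusted p = 1.15e-09). Of its 15 positions 14 were lower and 1 was at 0% in all samples. Mir2139 lies in an exon of Klhdc7a with the start site of that gene within 1 kb, and fell from 44.5% to 13.6%, by 30.8 ± 2.37 points (adjusted p = 3.19e-08), and by 46.4 with flanks of 2 kb.

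Mir6917 (chr10:128583437-128585497) lies in an intron of Erbb3, a receptor tyrosine kinase that pairs with ERBB2. It was at 36.3%, 45.4% and 53.3% in the lowest, median and highest FVB sample and at 8.88%, 13.1% and 23.9% in PyMT, and fell by 30.6 ± 2.33 points (adjusted p = 2.17e-08, limma). All 11 positions were lower, 8 of them by at least 10 points. Methylation was at this level from week 6 on, with a PyMT mean of 16.0% ± 4.44 (SD, n = 2).

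The largest rise was at Mir130a (chr2:84740115-84742178, intergenic). FVB samples were at 34.9%, 46.8% and 63.3% and PyMT samples at 78.9%, 81.0% and 87.2%, lowest, median and highest. Methylation was higher by 34.4 ± 2.46 points (adjusted p = 2.10e-09, limma), with every PyMT sample above every FVB sample.

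By stage, PyMT samples at Mir130a were at 87.2% and 80.3% in hyperplasia, 79.3%, 82.9% and 78.9% in adenoma/MIN, 81.7%, 80.2% and 79.1% in early carcinoma and 84.2% and 83.0% in late carcinoma. The glands were at 63.3%, 59.7% and 43.1% at week 6 and at 34.9%, 49.2% and 46.6% at week 12. The PyMT level was thus reached at hyperplasia, and the difference went from 28.4 points at week 6 to 40.02 at week 12 as the FVB mean went from 55.3% to 43.6%.

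The 6 positions of Mir130a lay within and beside the precursor (chr2:84741115-84741178). They are shown on the strand of the gene, with the measured CpGs in capitals (chr2:84741078-84741190, minus strand, GRCm38.p6).
Mir130a precursor and flanks: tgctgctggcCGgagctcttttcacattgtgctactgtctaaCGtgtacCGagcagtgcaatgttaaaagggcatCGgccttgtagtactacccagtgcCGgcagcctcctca
The first CpG, 2 bp before the precursor, went from 32.5% in FVB to 79.3% in PyMT. The second, within the precursor, went from 26.8% to 63.2%, and the third from 37.2% to 81.2% on the strand of the gene and from 45.6% to 85.3% on the other. The last 2, beyond the precursor, were already more methylated in the glands and went from 70.9% to 89.6% and from 72.9% to 91.5%. The 3 positions in the precursor rose by 40.5 points on average and the other 3 by 28.3.

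**Figure D3:**
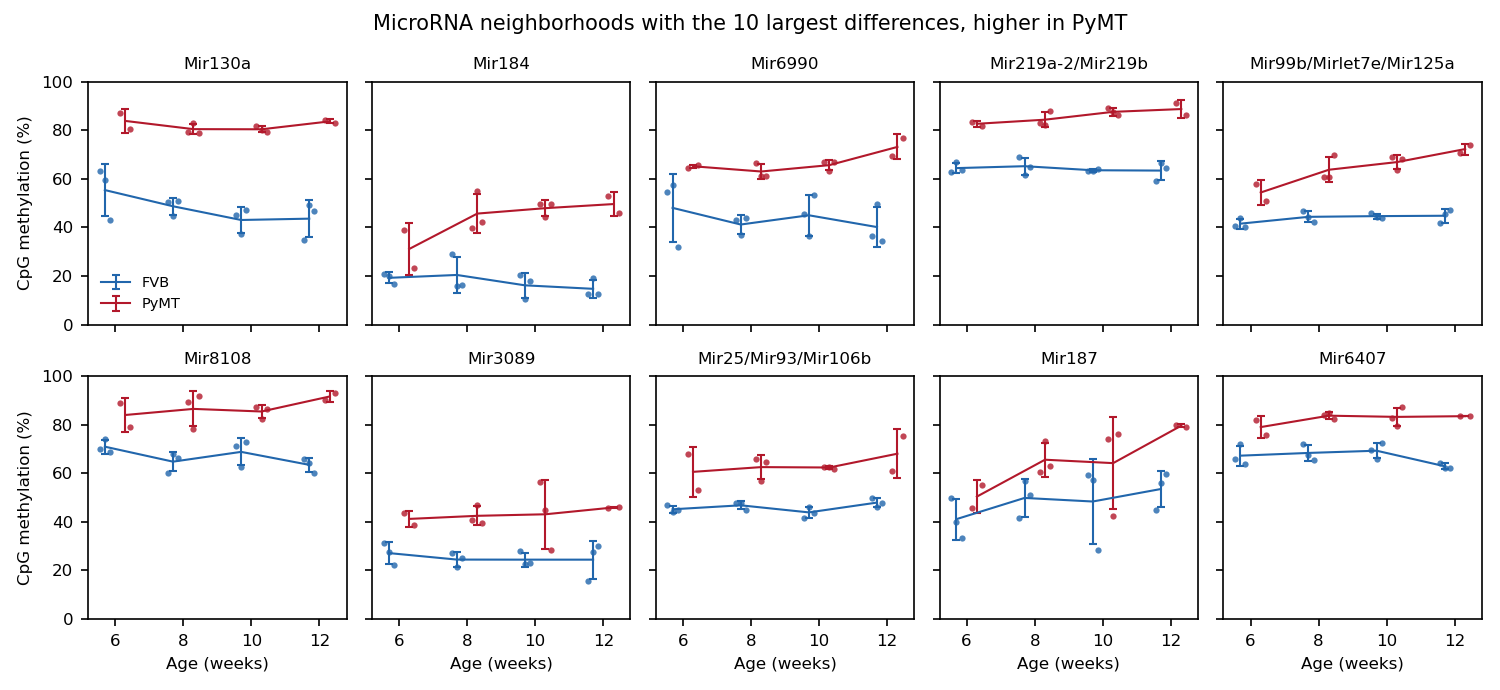
CpG methylation (y axis, percent) by age (x axis, weeks) of the 10 microRNA neighborhoods with the largest rises, with a point for each sample and the mean ± SD of each strain and week. PyMT (red) at Mir130a lies at 78.9% to 87.2% at all ages, at Mir99b/Mirlet7e/Mir125a it goes from a mean of 54.3% at week 6 to 72.2% at week 12, and at Mir184, Mir3089 and Mir187 samples of the strains overlap.

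Mir219a-2/Mir219b (chr2:29844631-29846727, intergenic) had the most positions of the regions that rose, 86. FVB samples were at 58.9%, 63.9% and 68.8% and PyMT samples at 81.7%, 86.1% and 91.2%, lowest, median and highest, without overlap. The region was higher by 21.7 ± 1.34 points (adjusted p = 2.06e-09, limma), and 85 of the 86 positions were higher, 63 of them by at least 10 points. The other locus of the same mature miR-219a, Mir219a-1/Mir219c (chr17:34023983-34026092), has the start site of Ring1 within 1 kb. It was at 2.02% in FVB and 2.44% in PyMT, a difference of 0.403 ± 0.0982 points (adjusted p = 0.0125).

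The cluster Mir99b/Mirlet7e/Mir125a (chr17:17829188-17831879), which has the start site of Spaca6 within 1 kb, was at 40.1%, 43.97% and 47.3% in the lowest, median and highest FVB sample and at 50.7%, 65.9% and 73.8% in PyMT. It was higher by 20.5 ± 1.53 points (adjusted p = 1.72e-08, limma), without overlap. The difference was 12.8 points in hyperplasia, 19.4 in adenoma/MIN, 22.2 in early carcinoma and 27.4 in late carcinoma. All 18 positions were higher, the 5 in the precursor of Mir99b by 22.8 points on average and the 7 in that of Mirlet7e by 14.6. The positions sat at -16 to 254 bp from the outer 5′ end of the precursors, and none lay in that of Mir125a.

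Mir25/Mir93/Mir106b (chr5:138164321-138166818) lies in an intron of Mcm7, a subunit of the replicative helicase. FVB samples were at 41.8%, 46.2% and 49.7% and PyMT samples at 53.2%, 62.7% and 75.2%, lowest, median and highest, without overlap. Methylation was higher by 17.4 ± 2.01 points (adjusted p = 2.14e-06, limma), and by 8.90 with flanks of 2 kb. All 6 positions lay in or beside the precursor of Mir25, and none in that of Mir93 or Mir106b. The 5 positions in the Mir25 precursor (chr5:138165321-138165404) and 1 beside it are shown on the strand of the gene, with the measured CpGs in capitals (chr5:138165313-138165423, minus strand, GRCm38.p6).
Mir25 precursor and flanks: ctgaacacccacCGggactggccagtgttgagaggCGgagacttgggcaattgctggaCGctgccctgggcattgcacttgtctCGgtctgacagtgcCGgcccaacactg
The second CpG was at 81.7% in the glands and at 90.6% in PyMT. The third went from 38.8% to 61.6%, the fourth, within the mature miR-25-3p, from 34.1% to 56.3% and the last from 45.2% to 63.2%.

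**Figure D4:**
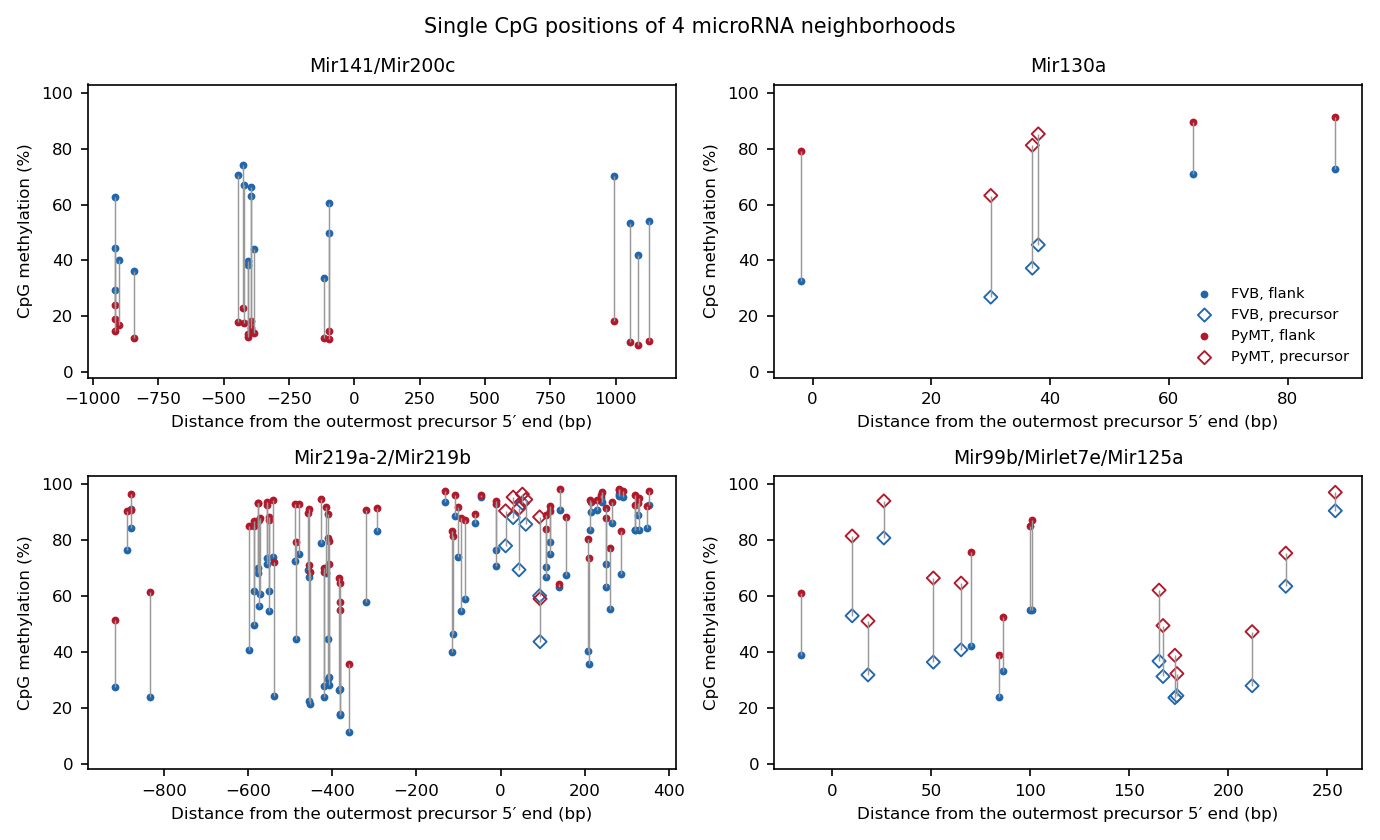
CpG methylation (y axis, percent) of single positions against the distance from the outermost 5′ end of the precursors (x axis, bp) in 4 microRNA neighborhoods, as the mean of the FVB (blue) and PyMT (red) samples, with open diamonds for positions within a precursor. All 20 positions of Mir141/Mir200c are lower in PyMT, and the 6 of Mir130a, the 18 of Mir99b/Mirlet7e/Mir125a and 85 of the 86 of Mir219a-2/Mir219b are higher.

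Mir184, intergenic and on 2 positions, was at 10.3%, 17.3% and 29.0% in the lowest, median and highest FVB sample and at 23.4%, 45.1% and 54.8% in PyMT, a rise of 25.9 ± 2.48 points (adjusted p = 2.89e-07, limma). The groups overlapped through a PyMT sample of week 6, the stage with the lowest PyMT mean of 31.1% ± 10.8 (SD, n = 2). At week 12 the mean was 49.6% ± 4.92 (SD, n = 2).

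Mir6990, in an intron of the orphan nuclear receptor gene Esrra, rose by 23.1 ± 3.07 points (adjusted p = 4.66e-06, limma). Mir8108, in an exon of Tacc1, rose by 19.9 ± 2.002 points (adjusted p = 4.15e-07), and Mir6407, in an intron of the aminopeptidase gene Xpnpep1, by 15.4 ± 1.45 on 12 positions (adjusted p = 1.62e-07), or by 8.31 with flanks of 2 kb. In these 3 regions the groups did not overlap. Mir3089 rose by 18.1 ± 2.79 points (adjusted p = 4.00e-05) and Mir187 by 16.7 ± 4.65 (adjusted p = 3.35e-03), and their groups overlapped.

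MicroRNA families and tissue lists were described by their counts. Of the 10 let-7 genes, 3 were measured. Mirlet7e was in the cluster that rose, Mirlet7c-2 (chr15:85705603-85707697) fell from 18.8% to 8.06%, by 10.8 ± 2.46 points (adjusted p = 4.20e-04, limma) or by 5.15 at a coverage minimum of 20 reads, and Mirlet7i, with 180 positions, was at 0.0907% and 0.0970%. Of the 4 positions of Mirlet7c-2, 3 were lower, but only 1 by at least 10 points (-27.6). Its groups overlapped, at 8.33% to 29.4% in FVB and 3.19% to 12.7% in PyMT. The 1 region of the miR-17 clusters that was measured, Mir25/Mir93/Mir106b, rose. Mir34c/Mir34b, whose microRNAs are induced by p53, passed the adjusted p (2.84e-05) with a rise from 0.954% to 2.95%, but with flanks of 2 kb the difference was -1.64 points.

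MicroRNAs of the Hox clusters had 5 measured regions with a median difference of -3.27 points, against -1.25 over all features. Mir10b (chr2:74725070-74727137), whose microRNA is known for raising the invasiveness of breast cancer cells, fell from 63.1% to 46.5%, by 17.1 ± 5.39 points (adjusted p = 0.0124, limma), and by 10.7 with flanks of 2 kb. Its differences were -29.4, -15.96, -12.8 and -10.1 points at weeks 6, 8, 10 and 12, and its groups overlapped. Mir196a-1 fell by 12.8 ± 3.67 points (adjusted p = 4.88e-03, limma), and by 8.06 at a minimum of 20 reads. Its groups overlapped too, at 9.90% to 36.7% in FVB and 5.55% to 29.8% in PyMT. The same PyMT samples were the highest, at 24.9%, 29.8% and 27.6%. Mir196a-2 and Mir615, at 4.82% and 4.76% in FVB, passed the adjusted p with falls of less than 5 points, and Mir196b, at 5.16%, had a difference of 1.94 points that did not pass (adjusted p = 0.0602).

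Neural microRNAs had 11 measured regions, and the differences of all 11 were positive, with a median of 2.08 points. Mir219a-2/Mir219b rose past 5 points. A further 9 passed the adjusted p with rises of less than 5 points from FVB levels of 0.589% to 6.38%. Among tiles under 20% in FVB, 19.5% passed as higher and 49.3% had a positive difference. Mir9-2, of the miR-9 family known from neural progenitors, went from 6.38% to 9.86% (3.44 ± 0.992 points, adjusted p = 8.15e-03, limma). Mir124a-2, of the neuronal miR-124 family, went from 1.99% to 5.44% (3.41 ± 0.486 points, adjusted p = 8.75e-06). Mir212/Mir132 was at 0.201% and 0.245% and did not pass.

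The list of epithelial and breast tumor microRNAs had 13 measured regions with a median difference of -0.0827 points. Mir99b/Mirlet7e/Mir125a and Mir26a-2 rose, Mir210 and Mir203 passed the adjusted p with falls of less than 5 points, and 9 regions did not pass. Among the 9, Mir375, Mir148a, Mir22, Mir193a and Mir193b were under 1% in both strains. Of the microRNAs of imprinted loci, Mir337/Mir3544/Mir540/Mir665 fell by 9.04 ± 1.38 points (adjusted p = 7.70e-05, limma) from 79.9%, and Mir431/Mir433/Mir127/Mir434 was at 89.4% and 89.2%, a difference of -0.266. With flanks of 2 kb these 2 neighborhoods merged into 1 larger region, which fell by 3.64 points (adjusted p = 6.71e-03). The muscle region Mir499 (3.44 points, adjusted p = 0.373) and the blood cell region Mir142b/Mir142 (3.38 points, adjusted p = 0.171) did not pass. The endothelial and stromal regions Mir199b (-1.37 points) and Mir145a/Mir143 (4.02 points) passed the adjusted p with differences of less than 5 points, and at a coverage minimum of 20 reads that of Mir145a/Mir143 was -0.00559.

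**Figure D5:**
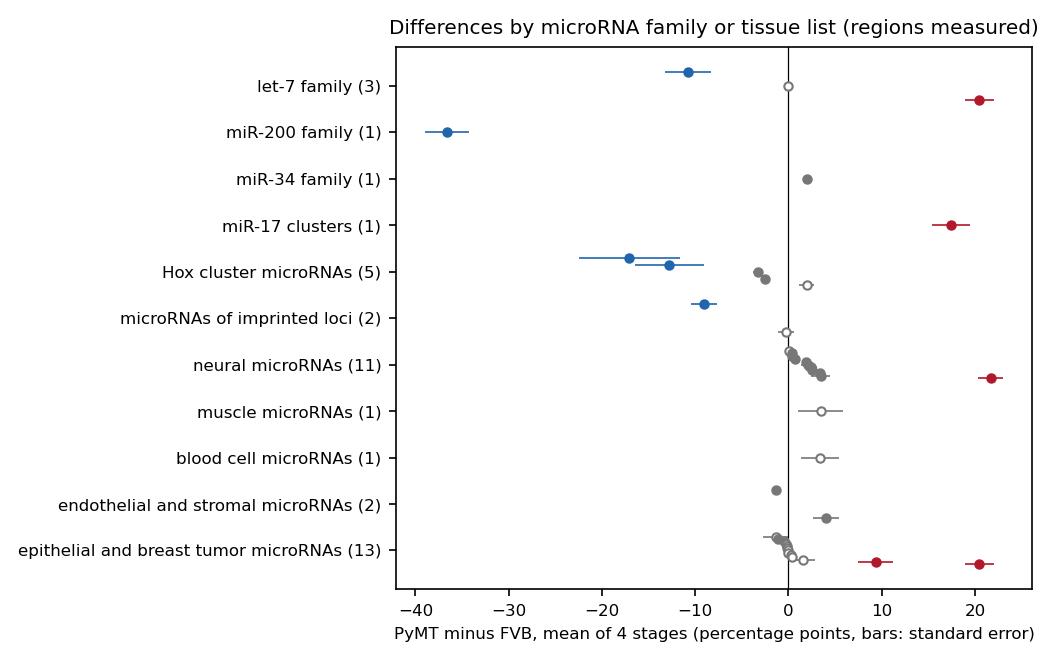
PyMT minus FVB differences averaged over the 4 stages (x axis, percentage points, bars of 1 standard error) of the measured regions of each microRNA family or tissue list (y axis). Blue and red points are regions called lower and higher, grey points passed the adjusted p with less than 5 points and open points did not pass. The 11 neural regions lie at or to the right of 0, and the Hox cluster regions run from -17.1 to 1.94 points.

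Regions whose microRNAs share a seed were set side by side. Of the 336 genes, 301 had a mature sequence in the RefSeq table, and outside chromosome 18 these gave 503 mature sequences with 469 distinct seeds. There were 30 of these seeds carried by more than 1 region, 17 of them with at least 1 region called. Regions of chromosome 18 are not part of these counts or of those that follow. At 4 seeds more than 1 region was called, and at each of the 4 the calls went in both directions. The miR-26 loci account for 2 of these seeds, and Mir7662 (-22.9 points) with Mir6911 (5.47) for another. The let-7 seed is the fourth, with Mirlet7c-2 and Mir1961 lower and Mir99b/Mirlet7e/Mir125a higher. Mir1961 (-13.8 points) rested on 2 positions. Its groups overlapped, at 35.4% to 80.7% in FVB and 27.8% to 53.7% in PyMT.

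miR-26a and miR-26b lie in genes of 3 related phosphatases, Mir26b in Ctdsp1, Mir26a-2 in Ctdsp2 and Mir26a-1 in Ctdspl. Mir26b fell from 58.2% to 51.4% (6.68 ± 2.10 points, adjusted p = 0.0144, limma), and Mir26a-2 rose from 65.9% to 75.5% (9.34 ± 1.90 points, adjusted p = 8.40e-04). Mir26a-2 rested on 2 positions, and in both regions the groups overlapped. With flanks of 2 kb neither passed, with differences of -1.43 points for Mir26b (adjusted p = 0.460) and 2.84 for Mir26a-2 (adjusted p = 0.369). Mir26b also did not pass with flanks of 500 bp, at 0.912 points (adjusted p = 0.784), at a minimum of 20 reads (adjusted p = 0.120) or without PyMT week 6 replicate 2, at -4.54 points (adjusted p = 0.0633). Mir26a-1 was at 37.4% and 31.2%, a difference of -6.53 ± 2.94 points that did not pass (adjusted p = 0.0631), and leaving out 1 sample at a time moved it between -3.91 and -9.15 points, and it passed in 5 of these 22 fits. Among the seed partners of regions that rose, Mir92b had a difference of 1.74 points and Mir125b-1 of 1.52, and neither passed. No measured position lay in the precursor of Mir125a, the partner of Mir125b-1.

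Calls were more frequent at intermediate methylation. Of the 131 regions under 20% in FVB, 4 were higher (3.05%) and 1 was lower (0.763%), and among tiles of that level the shares were 5.14% and 4.76%. Of the 90 regions at 20% to 80%, 23 were higher (25.6%) and 39 lower (43.3%), against 22.3% and 45.2% of tiles. Of the 83 regions over 80%, 5 were higher (6.02%) and 20 lower (24.1%), against 3.61% and 37.1% of tiles. The regions held more low levels than the tiles, with 43.1% under 20% against 22.7%. The FVB level enters both this split and the difference, so the shares are a description.

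A start site of another gene lay within 1 kb of a microRNA gene in 83 regions, in 57 of them that of the host. Of these 83, 3 were higher (3.61%) and 4 lower (4.82%), with a median FVB level of 0.207%, and the shares of tiles with a start site were 4.34% and 6.08%. Of the 221 regions without such a start site, 29 were higher (13.1%) and 56 lower (25.3%), and the shares of tiles without a start site were 12.0% and 37.3%. By position, 17 of 152 intronic regions were higher (11.2%) and 36 lower (23.7%). Of 66 intergenic regions 7 were higher (10.6%) and 10 lower (15.2%), and of 63 exonic ones 5 (7.94%) and 9 (14.3%). Among all features, whatever their position, 10.8% were higher and 32.7% lower. The median FVB level was 67.4% in the intronic regions, 4.99% in the intergenic and 5.12% in the exonic ones. Tiles were not split by position, so these shares were not compared at like levels. The median number of CpGs per kb was 18.3 in the regions called higher, 17.8 in those called lower and 28.1 in those not called.

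Of the 304 regions, 102 had a position within a precursor. Of 549 precursor positions, 30 were higher by at least 10 points (5.46%) and 25 lower (4.55%). Of the 6886 positions outside precursors in all regions, 219 were higher (3.18%) and 382 lower (5.55%). Positions of 1 region share reads, and no test was made of this difference. At the other extreme of coverage, the region with the most positions, Mir5130 with 181 at the start of Kctd12, was at 0.193% in FVB and 0.373% in PyMT.

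Single positions were tested at each stage by logistic regression of reads on strain. Differentially methylated cytosines (DMCs) were positions that differed by at least 10 points at a q-value below 0.01. The test treats reads as independent, so that spread among mice is not part of its error. In hyperplasia 144 of 7930 positions in the neighborhoods were hyper-DMCs (1.82%, against 2.52% of all positions tested) and 331 were hypo-DMCs (4.17%, against 5.88%). In adenoma/MIN 193 of 7759 were hyper-DMCs (2.49%, against 3.13%) and 325 hypo-DMCs (4.19%, against 6.93%). All these shares were below those of the positions tested as a whole. With an overdispersion correction there were 39 hyper-DMCs (0.492%, against 0.844% of all positions tested) and 161 hypo-DMCs (2.03%, against 2.45%) in hyperplasia. In adenoma/MIN there were 85 (1.10%, against 1.18%) and 153 (1.97%, against 2.97%).

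In early carcinoma 238 of 7938 positions were hyper-DMCs (3.00%, against 4.24%) and 409 were hypo-DMCs (5.15%, against 8.22%). In late carcinoma 260 of 7929 were hyper-DMCs (3.28%, against 4.29%) and 384 hypo-DMCs (4.84%, against 8.35%). Without PyMT week 6 replicate 1 the hyper-DMCs of hyperplasia fell from 144 to 68. With the overdispersion correction there were 140 hyper-DMCs (1.76%, against 2.29%) and 280 hypo-DMCs (3.53%, against 5.04%) in early carcinoma. In late carcinoma there were 157 (1.98%, against 2.42%) and 254 (3.20%, against 4.99%). Of 399 positions that were hyper-DMCs at 1 or more stages 70 were so at all 4, and of 569 hypo-DMCs 197 were. The matching shares over all positions tested were not counted, and nearby positions share reads. Mir141/Mir200c had 19, 18, 19 and 19 hypo-DMCs among 20 positions at the 4 stages, Mir130a had 5, 6, 6 and 6 hyper-DMCs among 6, and Mir99b/Mirlet7e/Mir125a had 7, 9, 14 and 14 among 18 or 19.

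The malignant transition was compared as the change from weeks 6 and 8 to weeks 10 and 12 in PyMT minus the same change in FVB. No region was called in either direction by limma, and 0.0102% of all features were called higher and 0.00717% lower. The larger differences at week 12 than at week 6 in Mir141/Mir200c, Mir130a and Mir99b/Mirlet7e/Mir125a are thus given as a description. At an unadjusted p under 0.05 there were 19 regions higher and 11 lower. The edgeR test called 0 regions, with 18 at an unadjusted p under 0.05, and limma on the percent scale called 1, Mir1905, with 36 at an unadjusted p under 0.05. The share of all features at that unadjusted p was not counted, so these counts are not read as a signal.

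Mir1905 (chr3:88535301-88537382), antisense to an exon of the RNA-binding protein gene Mex3a, is described here although it was picked after its values were seen. Its 24 positions gave PyMT values of 18.6% and 17.0% in hyperplasia, 26.2%, 20.9% and 22.3% in adenoma/MIN, 34.5%, 32.2% and 35.8% in early carcinoma and 41.2% and 45.2% in late carcinoma. All FVB samples lay between 11.7% and 20.5%. PyMT samples of weeks 8 to 12 all lay above the FVB samples, and those of week 6 lay within their range. The difference from FVB was 1.39, 8.38, 16.9 and 27.6 points at the 4 stages. On the logit scale the change at the transition, 17.4 ± 2.03 points, did not pass (adjusted p = 0.0760, limma), while the averaged difference of 13.6 ± 1.01 points did (adjusted p = 4.42e-07), and was 6.99 with flanks of 500 bp.

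The tissue was bulk, so a change in the share of a cell type cannot be told apart from a change in methylation per cell. Promoter methylation of cell type marker genes moved with the strains. Of 10 epithelial markers 8 were measured and all 8 means were lower in PyMT, Cldn4 by 26.9 points and Krt18 by 5.16, and the list mean was 6.68% to 9.71% in FVB samples and 2.16% to 3.94% in PyMT. Of 8 endothelial markers 3 were measured, with list means of 6.62% to 13.6% in FVB and 18.2% to 26.8% in PyMT and differences of 35.0 points at Esam, 2.02 at Egfl7 and -0.343 at Kdr. The list means of 3 of 10 leukocyte markers (42.7% to 48.7% in FVB, 39.1% to 53.7% in PyMT) and of 5 of 11 adipocyte and fibroblast markers (10.9% to 14.2% and 8.10% to 11.8%) overlapped. Their part in the differences of the microRNA neighborhoods was not tested.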

How the data were processed

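DNA methylation was profiled by ERRBS in 10 PyMT and 12 FVB samples, grouped by their labels. Per the submitters' processing notes, the reads were aligned with Bismark to mm10. The authors deposited for each sample the coverage, a count of reads, at every CpG position with at least 10 reads, and beside it the percent of those reads that were methylated and the percent that were not. Strands were kept apart and no value was normalized. Methylated reads were recovered as coverage times percent.

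Expression data and the regions of the eDMR package were not used here. MicroRNA genes, hosts and start sites came from the RefSeq annotation of GRCm38.p6, and 13 host transcripts named with the suffix hg were not counted as members. All 7435 positions lay at a CpG of the listed strand of the reference. Region methylation was the unweighted mean of its positions. The tests were limma 3.58.1 (trend and robust) on log2((p + 0.01)/(1 - p + 0.01)), with a group for each strain and week and all samples in 1 fit, and per position a likelihood-ratio test of a logistic regression. Standard errors in points came from the same fit on the percent scale. Regions were fitted together with 97320 autosomal tiles of 2 kb that overlapped none of them. The tests were checked on simulated data. For the position test these were reads drawn without spread among mice, so that check cannot show how the test behaves with such spread.

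Named regions were the 10 largest rises and the 10 largest falls among those called, the region with the most positions and, for each family list, examples with its counts. The members and the gene lists were chosen with earlier results of these data known. All 20 pairs of replicates differed beyond sampling noise (mean chi-square 1.71 to 3.24 per position). Same-numbered samples of the strains did not deviate together, with correlations of -0.0538 to 0.0514 over 10 pairs, so the numbers were not used to pair samples. Alternatives were edgeR 4.0.16, the percent scale, a coverage minimum of 20 reads, merged strands, other minima and flanks, pooled reads, counted host transcripts, an overdispersion correction, a replicate block and leaving out each sample. R 4.3.3, Python 3.11.15, numpy 2.4.6, pandas 2.3.3, scipy 1.17.1 and matplotlib 3.10.9 were used.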

Additional observations from a re-analysis of the deposited data

Results flagged for a closer look

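At Mir3060, in an intron of Rnf215 and on 2 positions, all PyMT samples lay above all FVB samples of week 8 and below those of weeks 10 and 12, with differences of 3.18, -6.72 and -7.70 points. The change of the difference from weeks 6 and 8 to weeks 10 and 12 was -9.53 points (adjusted p = 0.226, limma). At Mir3080, intergenic and on 4 positions, all PyMT samples lay above the FVB samples of week 10 and below those of week 12, with differences of 4.90 and -7.40 points and a change of -5.298 points (adjusted p = 0.769, limma). The reversal between single weeks was not tested in either region.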

How the results depend on the processing

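Counts of DMCs, given here from week 6 to week 12, depended on the threshold. With at least 25 points there were 52, 71, 104 and 129 hyper-DMCs and 202, 184, 255 and 253 hypo-DMCs. With the overdispersion correction there were 39, 85, 140 and 157 hyper-DMCs, and 161, 153, 280 and 254 hypo-DMCs. Leaving out each sample in turn gave 68 to 145, 149 to 186, 213 to 246 and 198 to 252 hyper-DMCs and 232 to 342, 261 to 347, 378 to 422 and 284 to 369 hypo-DMCs. The 68, without PyMT week 6 replicate 1, left a PyMT stage of 1 sample.

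Of the 304 regions, 56 were higher with no minimum difference and 15 with at least 10 points. With at least 5 positions, which kept 218 regions, 18 were higher and 39 lower, and with 500 bp flanks, which kept 229, 39 were lower. Leaving out each sample gave 28 to 33 higher and 57 to 62 lower, and 0 to 0 at the transition. The edgeR test called 31 higher and 57 lower, all of them among the main calls. At the transition 1 region, Mir1905, was higher on the percent scale, as it was with at least 5 positions. With the replicate block 32 regions were higher and 59 lower, all among the main calls, 0 were called at the transition, and hyper-DMCs numbered 101, 192, 237 and 235 and hypo-DMCs 262, 310, 402 and 347, so that it moved no count by over 1.5 times.

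Named regions kept their direction and call in 1471 values without a sample and in 612 under the other alternatives. In 25 values without a sample the call changed, for Mir26a-1, Mir26b and the 4 regions beside the threshold (Mir378c, Mir6911, Mir1191b and Mir7235). These 4 also account for 9 changes under the other alternatives. The other exceptions were Mir34c/Mir34b (-1.64 points with 2 kb flanks), Mir196b (-1.12, 500 bp), Mir431/Mir433/Mir127/Mir434 (4.23, 500 bp), Mir499 (-1.57, 2 kb), Mir145a/Mir143 (-0.00559, 20 reads), Mir5130 (-0.0217, 500 bp) and Mir337/Mir3544/Mir540/Mir665, which was no longer called (-3.64, 2 kb, where it merged with the Mir431 region), and further Mir219a-1/Mir219c (-0.0124, 500 bp), Mir191/Mir425 (-0.263, 20 reads), Mir9-2 and Mir125b-1, which were then called (5.78, 500 bp, and 5.005, with the Mir...hg hosts), Mir26a-2, which was no longer called (2.84, 2 kb), and Mir26b, which was no longer called with 2 kb flanks (-1.43) or 20 reads (-4.60) and turned direction without passing with 500 bp (0.912). A change of flank or coverage changes which positions enter. Regions with few positions and weeks with 2 PyMT samples limit the precision.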
